A study of Mus musculus with 5 samples.

Results

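The phosphate transporters of the kidney and the proteins that hold or regulate them were followed across the cell types of the adult mouse kidney. The set was chosen by name and holds 8 of the 17389 genes counted: the sodium-phosphate cotransporters *Slc34a1*, *Slc34a3*, *Slc20a1* and *Slc20a2*, the phosphate exporter *Xpr1*, the scaffold proteins *Slc9a3r1* and *Pdzk1*, and the parathyroid hormone receptor *Pth1r*. All 8 were found in the count matrix. They were described in every annotated cell type and in the 5 libraries, and then compared between wild type and *Fame* knockout kidneys. The study asked what changes in the kidney when *Fame* (listed as *ccdc198*), a gene coding for a membrane-associated protein, is lost.

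Mice were adults of the FVB/Ant strain, and kidney cells were captured in droplets so that the 3′ ends of their polyadenylated RNA could be counted with unique molecular identifiers (UMIs). Wild type (WT) mice carried the unedited gene in the libraries WT female and WT mix. Knockout (KO) mice carried 2 added STOP codons just after the start codon of *Fame*, placed there with CRISPR/Cas9, in the libraries KO female, KO male and KO mix. Mix stands for pooled males and females. The number of mice behind each library was not given in the sources used here, no label says that libraries of a genotype came from separate animals, and p-values therefore measure the spread between libraries, which may be technical. There was no library of wild type males alone, so that sex and genotype are partly confounded.

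Phosphate filtered by the glomerulus is taken back almost entirely in the proximal tubule. The type II cotransporters NaPi-IIa (*Slc34a1*) and NaPi-IIc (*Slc34a3*) sit in the brush border and bring phosphate in with sodium, and the type III cotransporters PiT-1 (*Slc20a1*) and PiT-2 (*Slc20a2*) are found in many tissues. NHERF1 (*Slc9a3r1*) and PDZK1 are PDZ proteins that anchor NaPi-IIa at the apical membrane, whereas parathyroid hormone, through *Pth1r*, and the bone hormone FGF23, through FGF receptors and Klotho, take the cotransporters off that membrane and lower phosphate uptake. XPR1 is the known phosphate exporter of animal cells.

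In the gene annotation of GRCm38 (the mm10 build), all 8 genes are protein coding. *Slc34a1* lies on chr13:55398187-55415592 of the plus strand and *Slc34a3* on chr2:25228898-25234364 of the minus strand. *Slc20a1* spans chr2:129198764-129211616 (plus), *Slc20a2* chr8:22476788-22569612 (plus), *Xpr1* chr1:155275701-155417415 (minus), *Slc9a3r1* chr11:115163341-115181181 (plus), *Pdzk1* chr3:96829284-96870926 (plus) and *Pth1r* chr9:110722085-110747145 (minus). Genes of the opposite strand that were also counted in the matrix overlap 5 of them, namely *Pfn3* for *Slc34a1*, *9830144P21Rik* for *Slc20a1*, *Smim19* for *Slc20a2*, *Cd160* and *Gpr89* for *Pdzk1* and *Myl3* for *Pth1r*. *Gm17491* lies within *Slc20a2* on the same strand and is in the matrix too, while *Gm4430* (opposite *Slc20a1*), *4930442L01Rik* (opposite *Pdzk1*) and the miRNA gene *Gm22569* (opposite *Xpr1*) have no row there. Whether counting used the strand was not given in the sources used here, so the UMIs of overlapping genes cannot be told apart with certainty.

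The 250 bases before the RefSeq start (build GRCm38.p6) are shown for both type II cotransporters, which carry the main contrast between cell types, and for the widely detected *Slc20a1*. Capitals mark the letters GTTAAT or their reverse complement ATTAAC, the core of the palindrome bound by the HNF1 factors of the proximal tubule. The windows are chr13:55399398-55399647 (plus strand), chr2:25234235-25234484 (minus strand) and chr2:129198523-129198772 (plus strand).
Slc34a1: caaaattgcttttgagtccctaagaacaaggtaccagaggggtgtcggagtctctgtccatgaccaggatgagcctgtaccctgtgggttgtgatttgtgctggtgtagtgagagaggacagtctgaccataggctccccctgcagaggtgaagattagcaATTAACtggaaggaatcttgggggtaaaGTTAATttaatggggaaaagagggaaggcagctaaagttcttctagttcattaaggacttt
Slc34a3: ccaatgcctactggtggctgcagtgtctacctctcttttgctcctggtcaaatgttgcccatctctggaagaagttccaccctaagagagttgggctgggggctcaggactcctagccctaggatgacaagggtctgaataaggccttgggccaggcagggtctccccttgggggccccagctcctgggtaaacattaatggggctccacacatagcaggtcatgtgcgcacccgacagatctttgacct
Slc20a1: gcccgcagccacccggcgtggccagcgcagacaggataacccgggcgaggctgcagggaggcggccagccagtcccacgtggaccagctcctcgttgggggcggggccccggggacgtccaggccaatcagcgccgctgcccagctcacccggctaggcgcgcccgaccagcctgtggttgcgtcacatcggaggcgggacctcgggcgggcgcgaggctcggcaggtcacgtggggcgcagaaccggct
The *Slc34a1* window held both orientations of this core, starting 89 and 61 bases before the start, and the *Slc34a3* window held neither. Of 32851 such windows of all mouse genes, 6.43% held it at least once and 0.441% held 2 copies or more. Letters of an HNF4 motif (CAAAGT, both strands), present in 12.6% of windows, were found among the members only before the first start of *Pth1r*, at 37 bases, and a TATA box (TATAAA), present in 12.4%, before none of the 11 starts of the 7 members in the table. No 2 of these motifs overlapped. The windows also differed in CpG dinucleotides, of which *Slc34a1* had 1, *Slc34a3* 2, the first start of *Pdzk1* 4 and the first start of *Pth1r* 3, against 13 for *Xpr1*, 20 for *Slc9a3r1* and 29 for the first start of *Slc20a1*. Later starts did not keep to this split, with 16 and 22 at the later starts of *Pth1r* and 5 at the later start of each of *Slc20a1* and *Pdzk1*. The median of all windows was 6. A match of letters describes the window and is not a measured binding site.

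The libraries held 1794 to 3567 cells and 9791091 to 15950717 UMIs each, 60492486 UMIs in 14197 cells together. In CPM, the UMI count scaled to a library total of 1000000, *Fame* was at 196 and 71.5 in wild type (female, mix) and 148, 127 and 83.1 in knockout (female, male, mix). An early STOP codon removes no transcript sequence near the poly(A) tail, where reads were counted, so that this level does not check the labels. The annotation put the 3 libraries of a single sex in run 2 and both mixed libraries in run 3, without saying what a run is. The median share of mitochondrial UMIs per cell was 12.6 to 15.3% in run 2 and 28.4 to 29.4% in run 3. Of all barcodes, 25 occurred in 2 or more libraries. Levels are given for a cell type in libraries with at least 20 cells of it, as the mean ± SD over libraries, and order the 13 types that had 3 or more such libraries. Since 3′ ends were counted, a level does not scale with the length of the transcript.

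The authors' names of the clusters were kept and checked against known markers; what PT_1, PT_2 and PT_f stand for beyond proximal tubule (PT) is not read from the names. *Slc5a2*, *Slc5a12* and *Slc7a7*, genes of the convoluted tubule, were highest in PT_c (606 ± 72.1, 680 ± 310 and 517 ± 68.3 CPM, n = 5), and *Slc7a13* and *Slc22a30*, genes of the straight tubule, in PT_s (424 ± 420 and 183 ± 181 CPM, n = 5). The third straight marker, *Atp11a*, was higher in the small cluster PT_f (448 ± 129 CPM, n = 4) than in PT_s (359 ± 320 CPM, n = 5). The endocytic receptor *Lrp2*, a gene of all proximal cells, was lower in PT_1 (548 ± 174 CPM, n = 5) than in PT_c (1766 ± 584 CPM, n = 5) and was at 2373 ± 752 CPM in PT_f (n = 4). Median depth per cell differed strongly between clusters, from 1346 to 1769.5 UMIs over the libraries in PT_1 and from 1513 to 1721 in PT_2, against 3856.5 to 5785.5 in PT_c and 4113 to 8708 in PT_s.

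*Slc34a1*, the main sodium-phosphate cotransporter of the kidney, was one of the abundant transcripts of proximal cells. In PT_c it stood at 3695 and 3741 CPM in wild type (female, mix) and 3895, 3995 and 3327 in knockout (female, male, mix). In PT_s the same libraries gave 3060, 2853, 3474, 3060 and 2617 CPM. Within each of the 5 libraries PT_s was below PT_c, by 0.31 ± 0.09 on the log2 scale. PT_2, with 3139 ± 138 CPM, was close to PT_s at 3013 ± 316, and the gap of 126 CPM between them was smaller than the spread over libraries.

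**Figure D1:**
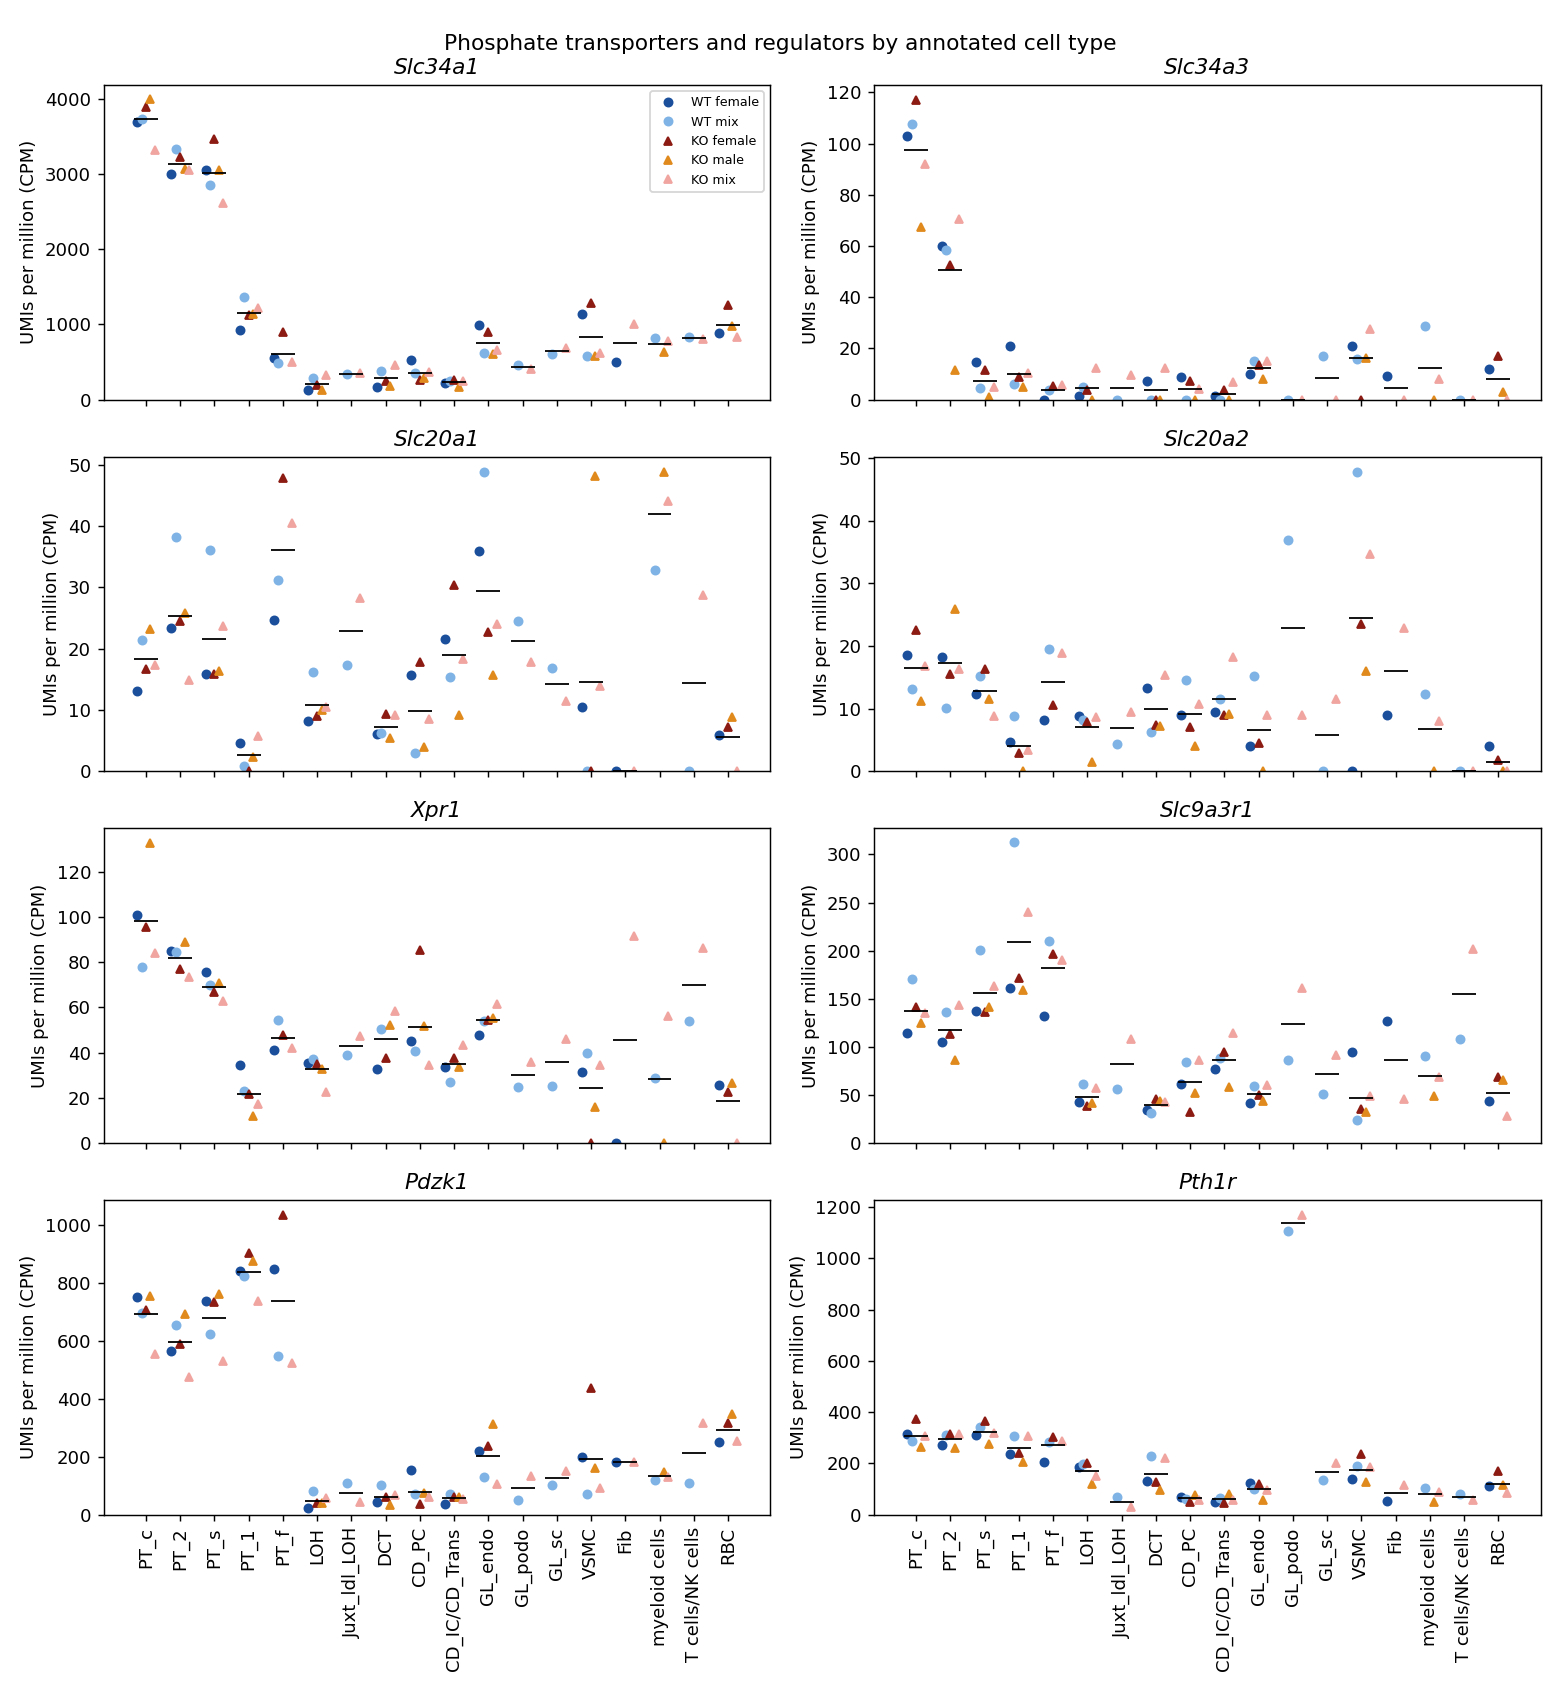
Scaled UMI counts (CPM, linear axes from 0) of the 8 genes in 18 annotated cell types, with 1 point per library of at least 20 cells (circles wild type, triangles knockout) and the mean as a black bar. *Slc34a1*, *Slc34a3*, *Xpr1* and *Pdzk1* were highest in proximal clusters, *Pth1r* in GL_podo, and *Slc20a1* and *Slc20a2* stayed below 50 CPM in every cell type and library.

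The remaining proximal clusters had far less *Slc34a1* for their depth. PT_1 stood at 927 and 1359 CPM in wild type (female, mix) and 1127, 1138 and 1216 in knockout (female, male, mix). That was below PT_c by 1.70 ± 0.24 on the log2 scale and in all 5 libraries. PT_f, the small cluster, had 551, 490, 898 and 504 CPM in WT female, WT mix, KO female and KO mix, and was below PT_c by 2.62 ± 0.35 (log2, n = 4). KO male held only 9 cells of PT_f and gives no value there.

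Outside the proximal tubule, *Slc34a1* was still counted in every cell type. The means were 986 ± 188 CPM in red blood cells (RBC, n = 4), 839 ± 343 in VSMC (vascular smooth muscle, n = 5), 756 ± 176 in GL_endo (glomerular endothelium, n = 5) and 744 ± 96.9 in myeloid cells (n = 3), and 212 ± 92.8 to 358 ± 101 CPM in the tubule segments downstream (LOH, CD_IC/CD_Trans, DCT and CD_PC). In UMIs per cell, a scale that was added after seeing the data, the 13 types outside the proximal tubule averaged 0.929 to 2.56 and PT_1 2.15 ± 0.636, while PT_f had 3.47 ± 2.23, PT_2 6.03 ± 0.440, PT_c 21.6 ± 6.61 and PT_s 23.7 ± 10.1. On these means PT_1 lay within the range of types outside the proximal tubule, among them RBC with 2.16 ± 0.769 UMIs per cell. The libraries differed in this. In WT female, KO female and KO male, PT_1 had 1.40, 2.05 and 1.77 UMIs per cell, below RBC with 1.91, 3.25 and 2.06. In WT mix it had 3.01, above every type outside the proximal tubule, of which T cells/NK cells were highest at 1.48. In KO mix it had 2.55, again above all of them, with Fib highest at 2.10. Haemoglobin made up 31.4 to 53.1% of the UMIs of the RBC libraries used, and without it RBC had 1774 ± 499 CPM of *Slc34a1*, above PT_1 with 1163 ± 149.

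Shares of cells with at least 1 *Slc34a1* UMI gave the same picture with depth held fixed. After each cell was thinned to 1000 UMIs, a level that every cell reached, 95.04 to 99.0% of PT_c cells, 89.1 to 95.2% of PT_s cells and 91.4 to 94.9% of PT_2 cells kept a UMI over the 5 libraries. In PT_1 it was 47.6 to 71.8% and in PT_f 36.4 to 47.8%, against 39.0 to 61.8% in RBC and 37.7 to 47.5% in GL_endo, cells that should lack the gene. Unthinned, the shares were 100% in PT_c of every library, 55.6 to 88.8% in PT_1 and 53.7 to 80.3% in RBC, whose median depth was 1356 to 2119 UMIs. Over the libraries, the shares of PT_1 and PT_f overlapped those of RBC, whose 11 cells in WT mix gave no share. Thinned, the lowest library of PT_1 was just above the highest of GL_endo. These shares alone are not read as expression or as its absence.

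The ratio of *Slc34a1* to *Pdzk1* separated these clusters. Free RNA in the droplets comes to all cells of a library in the same proportions, and over all proximal cells summed, 4.30 ± 0.27 UMIs of *Slc34a1* were counted per UMI of *Pdzk1* (n = 5). In the 13 types outside the proximal tubule the mean ratio was 3.39 to 6.13, for example 3.39 ± 0.49 in RBC, 4.26 ± 1.56 in GL_endo and 4.54 ± 1.19 in LOH. PT_c had 5.42 ± 0.39, PT_2 5.35 ± 0.71 and PT_s 4.48 ± 0.39. PT_1 had only 1.39 ± 0.25, with its highest library at 1.65, and PT_f 0.843 ± 0.134 (n = 4), with its highest at 0.961. No library of any other type came below 1.95, the lowest of GL_endo. For each UMI of the scaffold, PT_1 and PT_f thus had fewer UMIs of the transporter it anchors than any other cell type measured.

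**Figure D2:**
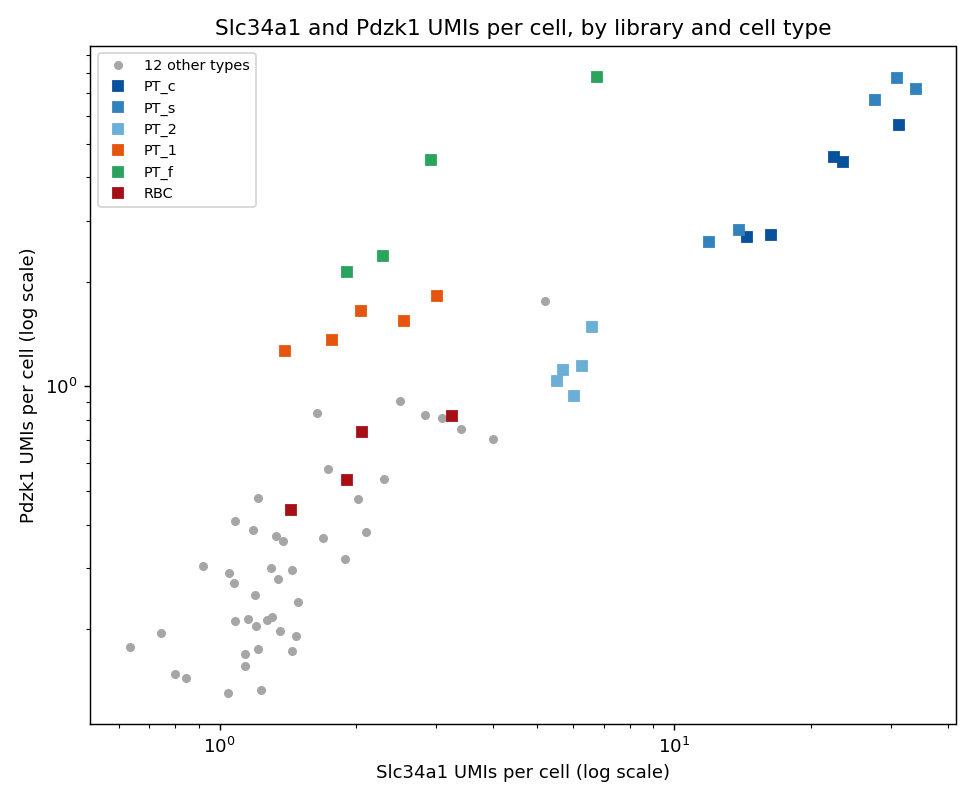
*Pdzk1* UMIs per cell (vertical, log axis) against *Slc34a1* UMIs per cell (horizontal, log axis), with 1 point per library and cell type of at least 20 cells. The 5 points of PT_1 and the 4 of PT_f lie above the band formed by PT_c, PT_s, PT_2, RBC and the 12 other types.

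*Slc34a3*, the cotransporter NaPi-IIc, was far rarer and concentrated in PT_c. In PT_c it had 103 and 108 CPM in wild type (female, mix), from 211 and 181 UMIs, and 117, 67.2 and 91.8 CPM in knockout (female, male, mix), from 394, 78 and 191 UMIs. In PT_s the same libraries had 14.8, 4.48, 11.6, 0.910 and 5.03 CPM, from 71, 15, 64, 4 and 17 UMIs. Every PT_c value was above every PT_s value, and within libraries PT_s was lower by 4.17 ± 1.25 on the log2 scale, against the 0.31 of *Slc34a1*. PT_2 lay between with 59.9, 58.3, 52.4, 11.5 and 70.6 CPM, below PT_c in each library. All other types averaged 16.2 CPM or less, the highest being VSMC with 16.2 ± 10.2 CPM, and PT_s (7.38 ± 5.69 CPM) was within their range on this scale. In UMIs per cell PT_s was not within that range in every library. It had 0.134 in WT female and 0.114 in KO female, above the highest library of VSMC at 0.0741, and 0.0188, 0.00922 and 0.0267 in WT mix, KO male and KO mix. In WT female, 10.8% of PT_s cells had a UMI, against 1.14% of CD_IC/CD_Trans cells, at median depths of 6321 and 6034 UMIs.

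Among UMIs of both type II cotransporters, *Slc34a1* made up 97.1 to 98.4% in PT_c and 99.5 to 99.97% in PT_s of the 5 libraries. There were 33.3 to 59.4 UMIs of *Slc34a1* per UMI of *Slc34a3* in PT_c. In PT_s the ratio was 206 and 636 in wild type (female, mix) and 299, 3364 and 521 in knockout (female, male, mix). At full depth, 26.4 to 52.1% of PT_c cells had a UMI of both genes and 0% had *Slc34a3* alone. Thinned to 1000 UMIs, 6.60 to 14.8% of PT_c cells, 0 to 1.89% of PT_s cells, 0 to 2.03% of GL_endo cells and 0 to 2.11% of RBC had a UMI of *Slc34a3*.

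The library of males alone was lowest for *Slc34a3* in all 3 clusters where it could be followed. In PT_c its 95% Poisson interval, 53.1 to 83.9 CPM, lay below those of WT female (89.4 to 118), WT mix (92.5 to 125) and KO female (106 to 129) and overlapped that of KO mix (79.3 to 106). In PT_2 it was 3.13 to 29.4 CPM, below the intervals of the other libraries, of which the lowest began at 38.5. In PT_s it was 0.248 to 2.33 CPM, and the other libraries began at 2.51 or above. These intervals cover counting error only, and with 1 such library, in the knockout, sex, genotype and library cannot be told apart here.

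**Figure D3:**
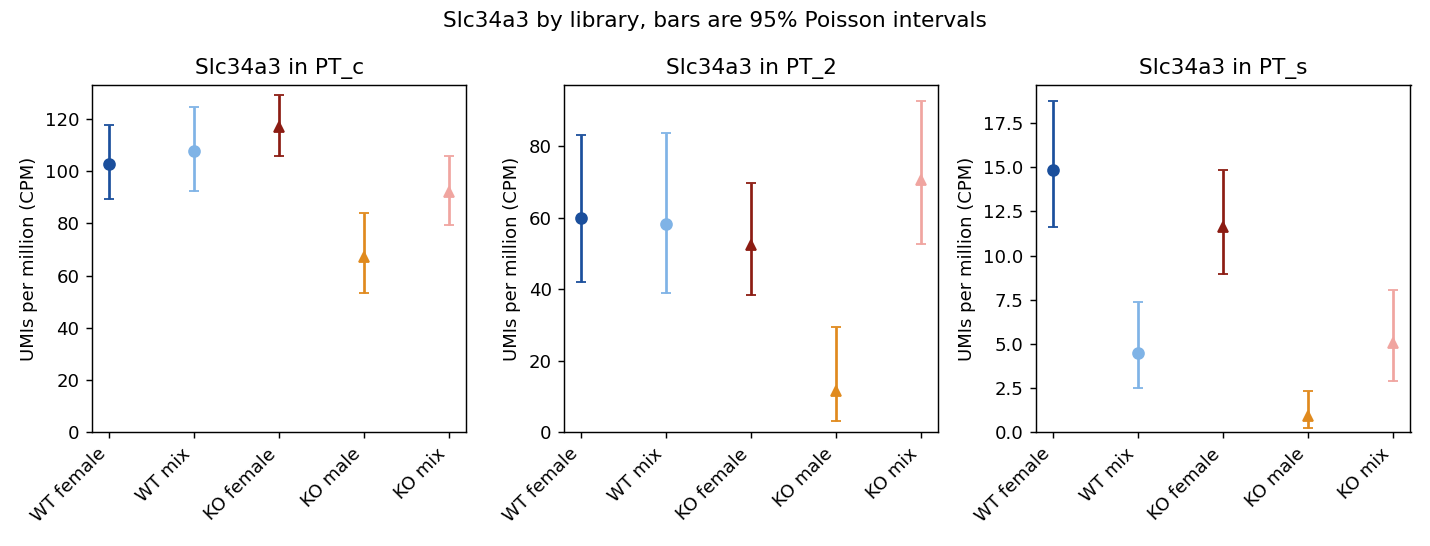
*Slc34a3* in scaled UMI counts (CPM, linear axes from 0 with a different range in each panel) in PT_c, PT_2 and PT_s, with 1 point per library and bars for the 95% Poisson interval of its count. KO male is the lowest point in each panel, at 67.2, 11.5 and 0.910 CPM.

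Cells of the mixed libraries were then split by *Xist* and by 4 transcripts of the Y chromosome, a step added after seeing the data, in which no cell of the 3 libraries of a single sex carried the wrong transcripts. Many cells showed neither kind, 2137 of 3354 in WT mix and 1622 of 3567 in KO mix, and were left out of the split, as were 39 and 75 cells with both. PT_c held 434 cells with 181 *Slc34a3* UMIs in WT mix and 423 cells with 191 in KO mix before the split. In PT_c of WT mix, 62 female cells had 163 CPM of *Slc34a3* (39 UMIs, interval 116 to 223) and 121 male cells 75.0 CPM (39 UMIs, 53.3 to 102). In PT_c of KO mix, 270 female cells had 89.6 CPM (117 UMIs, 74.1 to 107) and 60 male cells 83.9 CPM (28 UMIs, 55.8 to 121). The intervals of both sexes were apart in WT mix and overlapped in KO mix. They cover counting error only, and cells of a pooled library are not replicates of a sex. The number of mice of each sex in a pool was not given. Female cells of WT mix also lay above PT_c of the WT female library, at 103 CPM. In PT_s of the mixed libraries the split left 3 UMIs in each sex of WT mix. In KO mix it left 10 in females and 3 in males, and the intervals overlapped in both libraries. For *Slc34a1* the same split in PT_c gave 3646 (female) and 3720 CPM (male) in WT mix, and 3201 and 3617 CPM in KO mix.

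*Pdzk1*, the scaffold with several PDZ domains, was high in all 5 proximal clusters. It averaged 837 ± 63.3 CPM in PT_1, 739 ± 246 in PT_f (n = 4), 693 ± 81.5 in PT_c, 677 ± 98.2 in PT_s and 595 ± 83.6 in PT_2, and no neighbours in this order were further apart than their spread. PT_1 was above PT_c in each of the 5 libraries, by 0.28 ± 0.10 on the log2 scale. Among the 13 ordered types, RBC with 292 ± 48.3 and GL_endo with 201 ± 83.2 CPM came below the proximal clusters, and the lowest was LOH with 48.1 ± 21.7. Without haemoglobin, RBC had 532, 615, 507 and 414 CPM in WT female, KO female, KO male and KO mix. In PT_2 the same libraries had 575, 613, 707 and 476 CPM without it. Per cell, PT_1 had 1.53 ± 0.223 UMIs, against 0.214 to 0.645 in the 13 types outside the proximal tubule.

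*Slc9a3r1*, which codes for NHERF1, was proximal in its upper range among the ordered types and spread more widely below it. PT_1 had 161 and 313 CPM in wild type (female, mix) and 172, 159 and 240 in knockout (female, male, mix), and was above PT_c in 5 of 5 libraries, by 0.57 ± 0.27 on the log2 scale. PT_f followed with 182 ± 34.7 CPM (n = 4), PT_s with 156 ± 27.4, PT_c with 137 ± 21.3 and PT_2 with 117 ± 23.6. Among the ordered types, the first outside the proximal tubule was CD_IC/CD_Trans, intercalated and transitional cells of the collecting duct, with 86.6 ± 20.7 CPM. There, 2.69 ± 0.28 UMIs of *Slc34a1* were counted per UMI of *Slc9a3r1*, against 19.8 ± 5.11 over all proximal cells and 20.8 ± 6.22 in RBC. Podocytes, too few to be ordered, had 86.0 and 161 CPM of *Slc9a3r1* in WT mix and KO mix, counted without haemoglobin. T cells/NK cells, also too few, had 107.5 and 202 CPM in these libraries. GL_sc had 50.8 and 91.7, Juxt_ldl_LOH 56.5 and 108, and Fib 133 in WT female and 45.7 in KO mix. In the proximal clusters summed, WT mix and KO mix had 207 and 165 CPM of *Slc9a3r1* and the other 3 libraries 130 to 140. Both run and pooled sexes go with this difference, and their part in it cannot be told apart.

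*Pth1r*, the receptor of parathyroid hormone, was highest in GL_podo, the podocytes, which form the glomerular filter. Only the mixed libraries had 20 or more podocytes, with 1106 CPM in WT mix (30 cells) and 1172 in KO mix (26 cells), that is 4.02 ± 1.44 UMIs per cell. The podocyte markers *Nphs1* and *Podxl* stood there at 990 ± 79.4 and 3230 ± 142 CPM. Per UMI of *Pth1r*, podocytes had 0.377 ± 0.048 UMIs of *Slc34a1* and all proximal cells 9.63 ± 1.38. Thinned to 1000 UMIs, 66.7 and 76.9% of podocytes of the 2 libraries had a *Pth1r* UMI, and 8.22 to 10.9% of GL_endo cells did.

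Along the tubule, *Pth1r* varied little between proximal clusters, from 258 ± 45.8 CPM in PT_1 to 321 ± 34.4 in PT_s, with no neighbours further apart than their spread. In PT_s it was at 309, 342, 365, 274 and 318 CPM in WT female, WT mix, KO female, KO male and KO mix. VSMC, LOH and DCT formed a second tier with 176 ± 43.8, 171 ± 34.2 and 160 ± 59.9 CPM, beyond the spread from PT_1. RBC had 120 ± 35.5 CPM. Without haemoglobin RBC had 237, 328, 168 and 138 CPM in WT female, KO female, KO male and KO mix. In LOH the ratio of *Slc34a1* to *Pth1r* UMIs was 1.26 ± 0.57 and in DCT 1.80 ± 0.31, below the 8.42 ± 1.04 of RBC and 7.96 ± 1.84 of GL_endo, so that LOH and DCT had more *Pth1r* for their *Slc34a1* than blood and endothelial cells did. In VSMC the ratio was 4.92 ± 2.13, and its highest library, at 8.31, lay within the 7.41 to 9.83 of RBC. In CD_PC and CD_IC/CD_Trans *Pth1r* was at 62.9 ± 10.2 and 58.9 ± 14.3 CPM, with ratios of 5.72 ± 1.34 and 4.16 ± 1.39.

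*Xpr1*, the exporter, was detected in every cell type and followed a shallow gradient. PT_c had 101 and 77.9 CPM in wild type (female, mix) and 95.6, 133 and 84.1 in knockout (female, male, mix), and PT_s 75.7, 69.9, 66.8, 71.0 and 62.7. PT_s was below PT_c in each of the 5 libraries, by 0.48 ± 0.27 on the log2 scale. GL_endo with 54.6 ± 4.90, CD_PC with 51.5 ± 19.99 and DCT with 46.2 ± 10.7 CPM came next among the non-proximal types that were ordered. T cells/NK cells, too few to be ordered, had 53.8 and 86.4 CPM in WT mix and KO mix (2 and 3 UMIs). PT_1 had 21.7 ± 8.46 CPM, near RBC with 18.7 ± 12.6, and was 2.19 ± 0.71 below PT_c on the log2 scale.

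Both type III cotransporters were rare. *Slc20a1* was highest in myeloid cells, with 32.9 CPM in WT mix (8 UMIs), 48.9 in KO male (2 UMIs) and 44.1 in KO mix (11 UMIs), followed by PT_f with 36.0 ± 10.2 (n = 4) and GL_endo with 29.4 ± 13.02, and neighbours in this order did not differ beyond their spread. PT_f was above PT_c in 4 of 4 libraries, by 1.13 ± 0.41 on the log2 scale. PT_1 came last with 2.71 ± 2.41 CPM, from 0 to 5 UMIs per library. In the proximal clusters summed, WT mix and KO mix had 26.8 and 20.6 CPM and the other 3 libraries 15.3 to 17.2 CPM, the same split by run and pooled sexes. *Slc20a2* ranged from 1.44 ± 1.88 CPM in RBC to 24.4 ± 18.2 in VSMC, where no library held more than 6 UMIs, with 17.2 ± 5.70 in PT_2 and 16.4 ± 4.49 in PT_c, and no neighbours in its order of 13 types differed beyond their spread. Thinned to 1000 UMIs, 1.48 to 3.23% of PT_c cells had a UMI of *Slc20a1* and 0.922 to 2.07% of *Slc20a2*, which at this depth is too few to rank cells.

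PT_1 thus differed from PT_c in opposite directions for transporters and scaffolds. *Slc34a1*, *Slc34a3*, *Slc20a1*, *Slc20a2* and *Xpr1* were lower in PT_1 in 5 of 5 libraries each, with mean log2 ratios of -3.30 to -1.70 (0.5 added to each count), whereas *Slc9a3r1* and *Pdzk1* were higher in 5 of 5 and *Pth1r* was higher in 1 of 5. In PT_f, *Slc34a1*, *Slc34a3* and *Xpr1* were lower than in PT_c in 4 of 4 libraries, and *Slc20a1* and *Slc9a3r1* higher in 4 of 4. The clusters were built on these cells, so these are descriptions without a test.

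For each gene, the 3 genes with the most similar levels over the 13 cell types were taken from 9392 genes that reached 20 CPM in at least 1 type, by Pearson's r of log2(mean CPM + 5). For *Slc34a1* they were *Slc4a4* (r = 0.987), the basolateral sodium bicarbonate cotransporter, the sulfate transporter *Slc26a1* (0.983) and *G6pc* (0.983), the last enzyme of glucose release. For *Slc34a3* they were *Slc5a2* (0.955), the glucose cotransporter SGLT2 of the early proximal tubule, *Gc* (0.945), which codes for the vitamin D-binding protein, and *Iffo1* (0.934). For *Pdzk1* they were *Aldh8a1* (0.995), *Hgd* (0.994) and *4931406C07Rik* (0.993), and for *Pth1r* *Abat* (0.951), *Sardh* (0.913) and *Sgk2* (0.912). *Slc9a3r1* was nearest to *Cks2* (0.950), *Rabggta* (0.948) and *Stard10* (0.945), *Xpr1* to *Ireb2* (0.911), *Aph1a* (0.906) and *Mgat2* (0.896), *Slc20a1* to *Rpn2* (0.907), *Atp13a3* (0.889) and *Hspa5* (0.885), and *Slc20a2* to *Atl2* (0.910), *Txndc11* (0.897) and *B3galnt2* (0.893). Among the members themselves, *Slc34a1* was closer to *Pdzk1* (0.850) than to *Slc34a3* (0.788), and r with *Slc20a1* was 0.196. The points are 13 cell types of the same libraries and share their depth and free RNA.

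Other genes of phosphate handling, a list of 26, included hormone receptors and a co-receptor that were highest further downstream. *Kl*, the co-receptor Klotho of FGF23, was highest in DCT with 1182 ± 167 CPM and had 339 ± 71.5 in PT_c and 268 ± 33.4 in PT_s. *Vdr*, the vitamin D receptor, was also highest in DCT (282 ± 53.1 CPM), and *Casr*, the calcium-sensing receptor, in LOH (50.5 ± 14.1 CPM). The FGF receptors were low, with *Fgfr4* at 17.8 ± 0.998 CPM in PT_s, *Fgfr1* at 37.5 ± 34.1 in VSMC and *Fgfr3* at 38.0 ± 9.92 in GL_endo. *Cyp24a1*, which breaks down active vitamin D, reached 40.4 ± 25.5 CPM in PT_c, and *Cyp27b1*, which makes it, 3.17 ± 2.95 in PT_2.

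Transporters and enzymes of the list were split between segments. *Slc17a1* was highest in PT_s (569 ± 271 CPM) and *Slc17a3* in PT_f (642 ± 141 CPM), both organic anion carriers first named as phosphate transporters. *Slc34a2*, the intestinal type II cotransporter, was at most 14.2 ± 4.53 CPM, in LOH. *Slc9a3*, the sodium-proton exchanger that NHERF1 also binds, was higher in LOH (171 ± 33.4 CPM) than in PT_c (61.4 ± 9.85 CPM). *Slc9a3r2*, which codes for NHERF2, was highest in GL_endo with 635 ± 337 CPM, and *Alpl*, the alkaline phosphatase, in PT_c with 242 ± 55.0 CPM.

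Knockout was compared with wild type on raw UMIs summed per library, first over the 5 proximal clusters together. *Slc34a1* had 3065 CPM in WT female and 2772 in WT mix, and 3389, 3085 and 2502 in KO female, KO male and KO mix. *Slc34a3* had 40.9 and 33.7 CPM in wild type and 48.1, 13.7 and 35.1 in knockout. *Pdzk1* had 735 and 673 CPM against 729, 765 and 555, and *Pth1r* 302 and 318 against 354, 265 and 310. For each of these 4 genes the values of both genotypes overlapped.

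None of the 8 members passed an adjusted p of 0.05 in the proximal clusters summed, by edgeR's quasi-likelihood test with Benjamini-Hochberg adjustment (two-sided, n = 2 and n = 3 libraries). Of all 11245 genes tested, 0% were called, and 7 genes (0.0622%), no member among them, had an unadjusted p under 0.05. Evenly spread p-values would put a fraction of 0.05 of all genes there, far more than these 7, so the p-values were conservative. DESeq2 called 0 genes too, with 2 at an unadjusted p under 0.05. In simulated counts of the summed proximal clusters, 0% of genes changed 1.5-fold were recovered. Recovery was 2% for 2-fold and 48.9% for 4-fold changes. In PT_s and PT_c, 21.3 and 70.2% of genes changed 4-fold were recovered. A member without a call may therefore still have changed. The log2 fold change of *Slc34a1* in knockout was 0.05 (SE 0.28, 95% interval -0.64 to 0.73) and that of *Slc34a3* -0.20 (SE 0.47, interval -1.36 to 0.96). *Slc20a1* and *Slc9a3r1* had -0.23 and -0.20, and *Slc20a2*, *Xpr1*, *Pdzk1* and *Pth1r* lay between -0.03 and 0.01, all with an adjusted p of 1.0 by edgeR. The median of the 8 members was -0.02 and that of all genes tested -0.00.

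**Figure D4:**
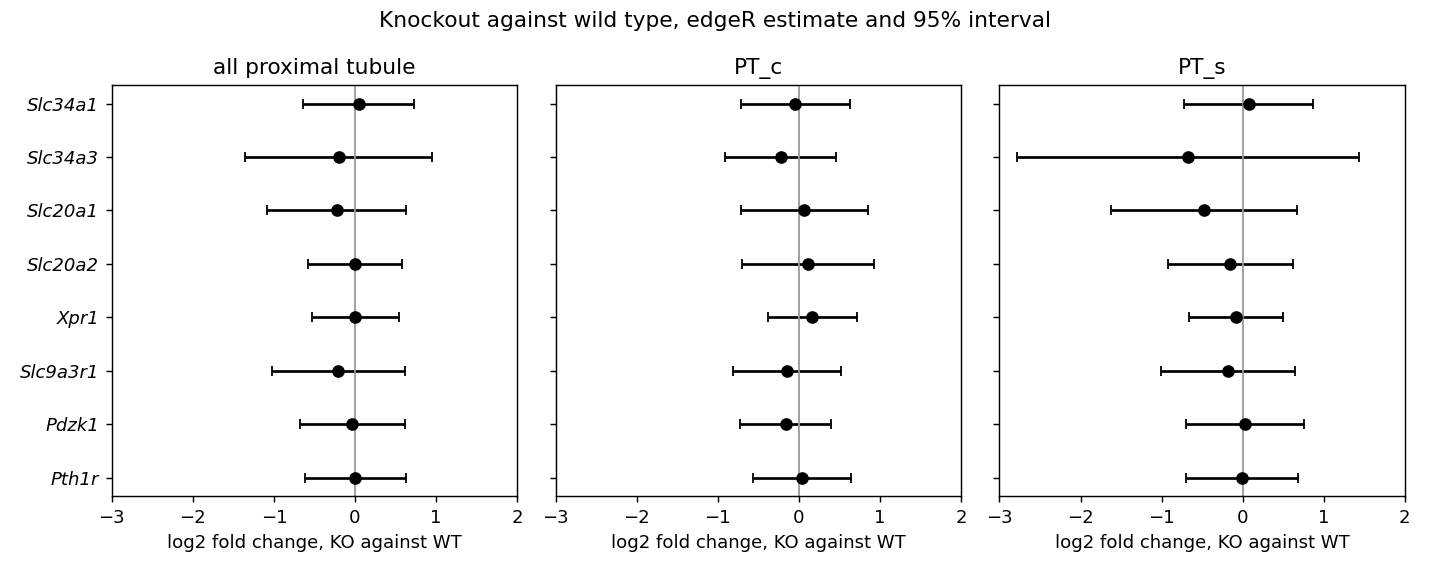
Log2 fold change of knockout against wild type for the 8 genes in all proximal clusters summed, in PT_c and in PT_s, as edgeR's estimate (point) with its 95% interval (bar) from 2 wild type and 3 knockout libraries. Every interval crosses 0, and the widest is that of *Slc34a3* in PT_s, from -2.78 to 1.43.

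The single cell types gave the same result. No member was called in PT_s (8 tested of 10342 genes), PT_c (8 of 9099), PT_2 (8 of 6015), LOH (7 of 8952), PT_1 (5 of 5646) or DCT (5 of 6123), where 0% of all genes were called and 0.116, 0.418, 0.416, 0.659, 0.213 and 0.555% had an unadjusted p under 0.05 by edgeR. No member was among these in the design used, and the alternatives where one was are named with the effects of the processing. As in the summed clusters, far fewer genes lay under this threshold than evenly spread p-values would put there. DESeq2 called 0 genes in each of these types and had 1 to 8 at an unadjusted p under 0.05. In PT_c, *Pdzk1* was at -0.16 (interval -0.73 to 0.40) and *Xpr1* at 0.17 (-0.38 to 0.72). *Slc34a3* was at -0.22 in PT_c (-0.91 to 0.46) and -0.68 in PT_s (-2.78 to 1.43). Of the other 26 phosphate genes, 22 could be tested in the summed proximal clusters, of which 0 were called or had an unadjusted p under 0.05, and 11 had a positive and 11 a negative estimate, where 49.4% of all genes were positive.

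The difference of the knockout effect between PT_s and PT_c was tested in 1 fit with the library as a block. No member was called (0% of 10313 genes, with 150 genes or 1.45% at an unadjusted p under 0.05 by edgeR, and 11 by DESeq2, which also called 0). The estimate for *Slc34a1* was 0.11 (SE 0.21) and for *Slc34a3* -0.54 (SE 0.76). Red blood cell markers in the proximal clusters summed to 4693 to 9971 CPM in the libraries of run 2 and to 117 and 16.2 CPM in WT mix and KO mix, and other marker lists to at most 383 CPM (LOH markers in WT female). Their part in the levels of the members was not tested.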

How the data were processed

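The authors aligned reads and counted UMIs with Cell Ranger 4.0.0 (mm10) and deposited the raw counts of filtered cells, together with the percent of mitochondrial UMIs, a Scrublet doublet score (a fraction from 0 to 1) and a cell type assigned with Seurat 3.2.2.9001. No doublets were removed here; 1831 cells (12.9%) scored above 0.2. Sums of counts were taken for each cell type of a library that held at least 20 of its cells. CPM is relative to all UMIs of the sum, without TMM. Knockout was tested against wild type with edgeR 4.0.16 (TMM, robust quasi-likelihood, default filter), with DESeq2 1.42.0 as alternative, after a check on simulated counts. Thinning used 1000 UMIs per cell, shares carry exact binomial intervals, and coordinates are those of the GENCODE annotation of GRCm38. The members and the list of 26 other genes were chosen with earlier results of these data known. The text names the 8 members, the list, and for each member the 3 genes of highest r. Alternatives covered scaling, filters, blocks, cell quality and leaving out each library. R 4.3.3 and Python 3.11.15 were used. Some marker genes are not reported here.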

Additional observations from a re-analysis of the deposited data

How the results depend on the processing

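Of 341 alternative values of 40 results, 301 kept their direction and side of the threshold or moved by less than the spread. Of the rest, 23 were classed as reversed and 17 as moved. No member was called under any alternative. Members reached an unadjusted p under 0.05 in 6 of them: *Slc34a1* in LOH and in DCT with the replicate block, *Pdzk1* in LOH without WT female and without WT mix, *Slc20a1* in PT_s without WT female, and *Slc20a1* for the difference between PT_s and PT_c in cells with at most 25% mitochondrial UMIs. Libraries with the same replicate number share sex composition and run, so the number was tried as a replicate block. Deviations from the genotype mean correlated over genes by 0.803 (female pair) and 0.540 (mixed pair), but these 2 values are not independent, since 2 deviations around 1 mean are opposite, and KO male has no partner. With the replicate block, 23 genes were called in PT_c, 11 in PT_1, 14 in PT_2, 8 in LOH and 1 in DCT, and 0 in PT_s and in all proximal clusters summed. With the run as a block, 2 genes were called in LOH. For the difference between PT_c and PT_s, 4 genes were called without a filter on low counts and 0 to 2 with a library left out, the 2 without WT female; these alternatives were chosen after seeing the data. In each case the main count was 0 and the cause was not tested.

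Estimates in the summed proximal clusters changed sign under some alternatives. Among them were those of *Slc20a1*, *Slc9a3r1* and *Slc34a3*, which were furthest from 0. With the replicate block, *Slc34a1* was at -0.0026, *Slc34a3* at 0.15, *Slc20a2* at 0.10 and *Xpr1* at -0.089. *Xpr1* was at -0.019 with the run as a block and at -0.0062 with at least 20 counts in every library, where *Pth1r* was at -0.0031. *Slc20a2* was at 0.0028 with DESeq2, 0.0042 without a filter and 0.21 in cells with at most 25% mitochondrial UMIs. With each library left out, the estimates ranged from -0.52 to 0.15 for *Slc34a3*, -0.65 to 0.37 for *Slc20a1*, -0.15 to 0.090 for *Slc20a2*, -0.087 to 0.061 for *Xpr1*, -0.58 to 0.31 for *Slc9a3r1*, -0.14 to 0.064 for *Pdzk1* and -0.13 to 0.16 for *Pth1r*. The log2 ratio of PT_s to PT_c of *Slc9a3r1* rose from 0.18 to 0.32 in cells with at most 25% mitochondrial UMIs.

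Thinning to 1000 UMIs lowered the mean share of PT_c cells with a UMI to 97.2% for *Slc34a1*, 10.3% for *Slc34a3*, 2.49% for *Slc20a1*, 1.47% for *Slc20a2*, 11.1% for *Xpr1*, 12.6% for *Slc9a3r1*, 50.8% for *Pdzk1* and 25.4% for *Pth1r*, since each cell then holds fewer UMIs. Depth limits *Slc20a1*, *Slc20a2* and *Slc34a3* outside PT_c, and the 5 libraries limit every comparison of genotypes.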
